A study of Mus musculus with 9 samples.

Results

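Expression of the MHC class I molecule and of the genes that load peptides onto it was followed in the mediobasal hypothalamus of mice after injection of a Cre virus. The 10 genes were found by gene symbol among the 13588 entries of the expression table, and all 10 had a row. They are the heavy chains H2-K1, H2-D1 and H2-Q6, the light chain B2m, the peptide transporter subunits Tap1 and Tap2, tapasin (Tapbp), the immunoproteasome subunits Psmb8 and Psmb9, and the regulator Nlrc5. The genes were selected on their higher values in the AAV-Cre mice labelled obese than in AAV-GFP mice, which were already known. Comparisons that involve those mice are therefore given as a description. Calls and p-values of these 10 genes in them come from the fits across all entries and are no evidence that the groups differ.

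RNA was sequenced from 9 male C57/BL6 mice (C57BL/6J in the study's methods), all homozygous for a floxed Snord116 allele, in 3 groups of 3. At 10 to 12 weeks of age each mouse received either AAV-GFP (CMV promoter) or AAV-Cre (CAG promoter) in the mediobasal hypothalamus, and brains were frozen 10 weeks later. Regions for laser capture were placed by Cre staining of adjacent sections in AAV-Cre mice and matched to them in AAV-GFP mice, and each library holds RNA of 1 mouse. The vectors differed in promoter and titre as well as in the protein they encode, and both promoters are active in many cell types. Within AAV-Cre, 3 mice carry the weight label obese and 3 the label nonobese. The sample titles state the opposite: the mice labelled nonobese are the ones with obese in the title. The subsets are named here by weight label, and a reversal of the labels would exchange the names of the subsets but not the values of any library.

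MHC class I molecules display short peptides from inside the cell at its surface, where CD8 T cells read them. Proteasomes cut proteins into peptides, the TAP transporter moves these into the endoplasmic reticulum, and tapasin holds an empty heavy chain with its light chain beside the transporter until a peptide binds. In inflamed tissue, interferons raise the whole set and exchange catalytic subunits of the proteasome for immunoproteasome subunits. In healthy brain, neurons are known for low class I levels, and microglia and endothelium for higher levels.

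Values are given as signal, which is reads per gene over the TMM-scaled size of the library, on the scale of CPM. Reads on the listed entries numbered 3929672 to 5766994 per library, so that 3 reads, taken as the lowest signal told from 0, correspond to 0.525 to 0.786 (counting error only). Cre had 1011 to 37704 reads in the AAV-Cre libraries and 0 to 5 in the AAV-GFP libraries, and Gfp had 317 to 350 reads in AAV-GFP and 0 in every AAV-Cre library. Snord116 itself was not analysed here. Summed neuron markers lay between 1698 and 2538 in all libraries. Of the hypothalamic markers, Nr5a1, a marker of the ventromedial nucleus, was at 0 in AAV-GFP replicate 3, obese replicates 1 and 3 and nonobese replicate 3, and Agrp, a marker of the arcuate nucleus, at 0 in obese replicates 1 and 3.

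Labelled obese replicates 1 and 3 stood apart from the other 7 libraries. Each of the 10 genes was higher in both of them than in any other library, as were 9.34% of all entries tested (1262 of 13506). The lower of these 2 libraries exceeded the highest of the other 7 by between 3.45-fold (Tapbp) and 38.2-fold (Psmb9). Replicates 1 and 3 themselves differed by at most 1.56-fold for any of the genes. Summed over the 10 genes, signal was 3424 and 3439 in these libraries and 269 in labelled obese replicate 2. It lay between 147 and 227 in AAV-GFP and between 118 and 217 in the mice labelled nonobese. In this bulk RNA, more cells of a type and more RNA per cell cannot be told apart.

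**Figure D1:**
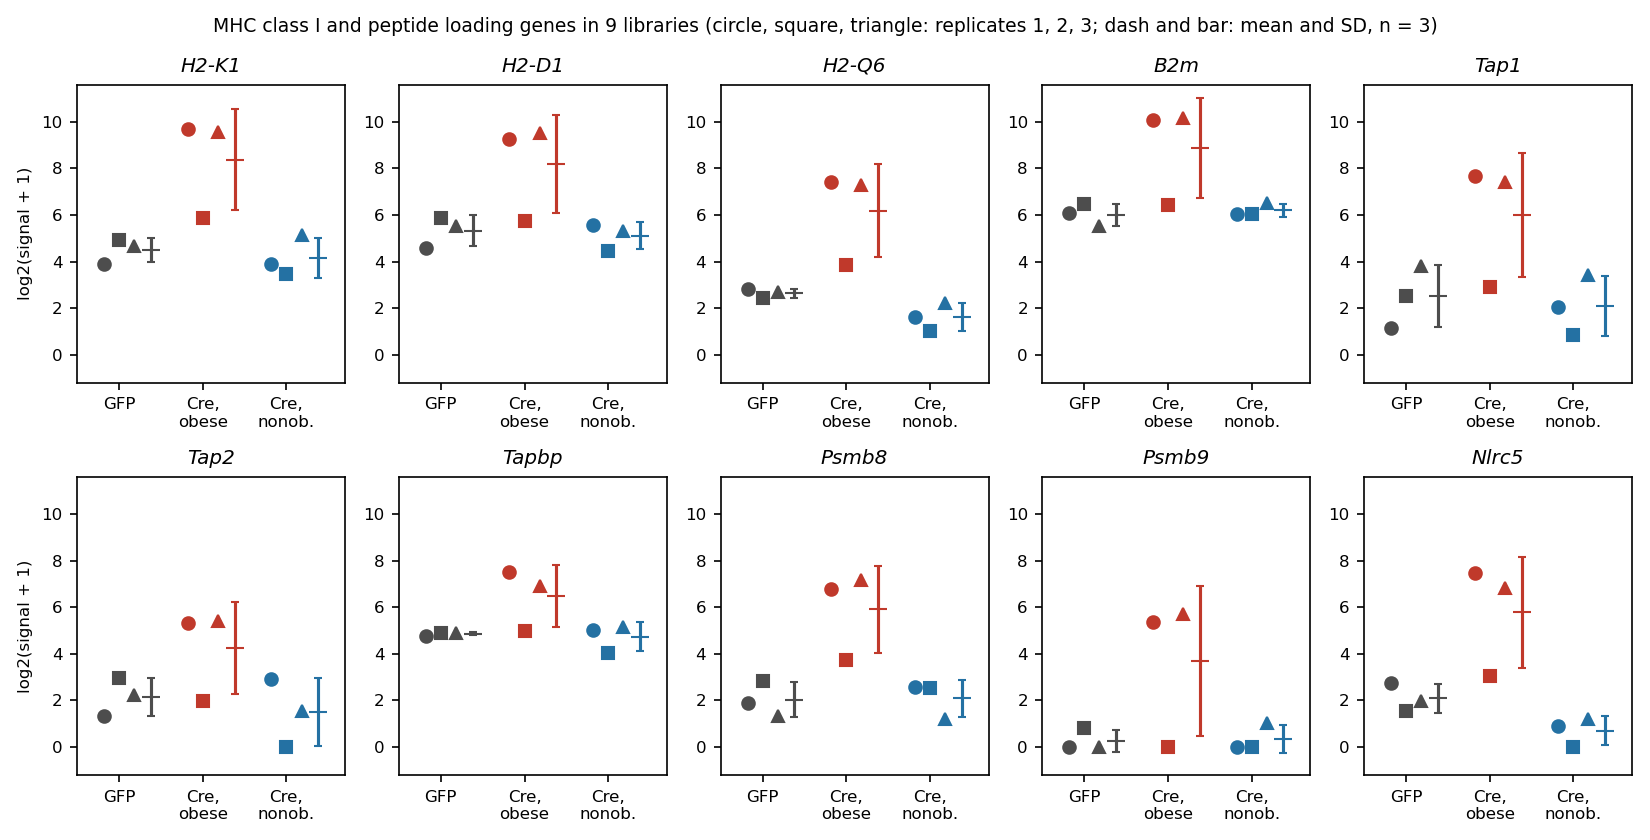
Expression of each of the 10 genes in each library, as log2(signal + 1), by group. Circles, squares and triangles are replicates 1, 2 and 3, and the dash with its bar is the group mean ± SD (n = 3). In every panel the circle and triangle of the labelled obese group lie above all other points, while its square lies within the AAV-GFP range for 5 genes and above it for the other 5, to 58.1 against at most 29.5 in signal for H2-K1 and 13.6 against at most 5.98 for H2-Q6.

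Heavy chains hold the peptide and carry most of the differences between class I molecules. H2-K1 (ENSMUSG00000061232, chr17:33996017-34000347) and H2-D1 (ENSMUSG00000073411, chr17:35262730-35267499) are the classical chains that present peptide to CD8 T cells, and H2-Q6 (ENSMUSG00000073409, chr17:35424850-35430055) is a nonclassical chain of the Q region (GRCm38 throughout). The promoters of the 3 genes are shown because they share sequence. In the RefSeq promoter windows (GRCm38.p6), the longest run common to all 3 has 21 bases, and 64 bases from its start each holds GGGATTCCC, letters that NF-kB is known to bind. Both are in capitals in the following 100-base stretches, written 5′ to 3′ on the strand of the gene.
H2-K1, chr17:34000422-34000521 (- strand): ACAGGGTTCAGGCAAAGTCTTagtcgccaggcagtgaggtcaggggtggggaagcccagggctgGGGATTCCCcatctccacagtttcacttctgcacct
H2-D1, chr17:35262860-35262959 (+ strand): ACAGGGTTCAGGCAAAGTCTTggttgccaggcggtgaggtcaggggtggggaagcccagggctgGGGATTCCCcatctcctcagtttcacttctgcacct
H2-Q6, chr17:35424614-35424713 (+ strand): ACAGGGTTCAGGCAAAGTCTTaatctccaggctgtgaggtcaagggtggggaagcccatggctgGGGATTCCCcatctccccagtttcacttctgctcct
Without gaps, the stretch of H2-K1 matched that of H2-D1 at 96 bases and that of H2-Q6 at 93, and the latter pair matched at 91. The shared run occurred in 5 of the 27025 promoters searched on both strands, those of H2-D1, H2-K1, H2-Q4, H2-Q6 and H2-Q7. GGGATTCCC occurred in 0.37% of all promoters, and in 3 of the 8 members that have an entry (Tap2 and Nlrc5 have none).

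The signal of H2-K1 was 14.0, 29.5 and 24.1 in AAV-GFP replicates 1 to 3, 814, 58.1 and 762 in the mice labelled obese, and 13.8, 10.2 and 33.9 in those labelled nonobese. Labelled obese replicates 1 and 3 were 36.1 and 33.9 times the AAV-GFP mean, and replicate 2, at 2.58 times, was also above every AAV-GFP library. The log2 fold change (log2 FC, on signal + 1) of the labelled obese group against AAV-GFP was 3.88 ± 0.62 (SE). On this scale it was the largest of the 10 genes, but Psmb8 was within its SE at 3.87. Without the added 1, the ratios of replicates 1 and 3 to the AAV-GFP mean were larger for Psmb9 (159.5 and 201.1). H2-D1 was at 23.2, 57.3 and 44.9 in AAV-GFP, 621, 53.1 and 733 in mice labelled obese, and 46.5, 21.2 and 38.4 in mice labelled nonobese. Here replicate 2 labelled obese lay inside the AAV-GFP range, and the log2 FC was 2.86 ± 0.58 (SE). H2-Q6 was low in AAV-GFP, at 5.98, 4.40 and 5.44, against 169, 13.6 and 153 in mice labelled obese and 2.10, 1.0 and 3.63 in mice labelled nonobese. The 3 groups did not overlap for this gene, with labelled obese on top (log2 FC 3.54 ± 0.74, SE) and labelled nonobese lowest. Of the 50-base windows of its transcripts, 32.0% also occur in other genes (14.0% in H2-Q7), so its reads, and less so those of H2-D1 (12.8%) and H2-K1 (9.63%), could be divided among related genes or dropped in counting.

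The ratio of the classical chains within a library was higher in the labelled obese libraries than in the others. The ratio of H2-K1 to H2-D1 signal was 0.515 to 0.602 in AAV-GFP, 1.31, 1.09 and 1.04 in mice labelled obese (replicates 1 to 3), and 0.297, 0.482 and 0.883 in mice labelled nonobese. It was thus above 1 in all labelled obese libraries, replicate 2 included, and below 1 in the other 6. Signal is not corrected for gene length, so a ratio above 1 does not give the order of the chains. Per kilobase of merged exon, H2-D1 was above H2-K1 in labelled obese replicates 2 (20.6 against 19.8) and 3 (284 against 259). In replicate 1 it was below (241 against 277).

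B2m encodes beta-2 microglobulin, the light chain that every class I heavy chain needs to reach the surface (ENSMUSG00000060802, chr2:122147686-122153083). It is the member outside the MHC whose promoter window held the core of the interferon-stimulated response element (ISRE, GAAA on either side of any 2 bases), in capitals in this stretch.
B2m, chr2:122147503-122147602 (+ strand): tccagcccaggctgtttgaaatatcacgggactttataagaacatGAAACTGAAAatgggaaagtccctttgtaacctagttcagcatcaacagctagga
These letters were in 3.489% of all promoters, and in no window of the other 7 members searched. Only this exact pattern was searched, so a window without it can still hold another form of the element. B2m signal was 66.6, 86.9 and 44.9 in AAV-GFP, 1068, 84.4 and 1153 in mice labelled obese, and 64.9, 65.2 and 90.7 in mice labelled nonobese. Replicates 1 and 3 labelled obese reached 16.2 and 17.4 times the AAV-GFP mean, replicate 2 was inside the AAV-GFP range, and the log2 FC was 2.87 ± 0.55 (SE). B2m relative to the summed signal of the 3 heavy chains was 0.603 to 1.54 in AAV-GFP, 0.666 to 0.699 in mice labelled obese, and 1.04 to 2.01 in mice labelled nonobese. B2m overlaps Patl2 on the opposite strand. The kit marks strand, but whether counting used it is not given in the sources used here, so reads of overlapping genes on opposite strands may not be told apart.

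Tap1 and Tap2 form the transporter that carries peptides into the endoplasmic reticulum. Tap1 (ENSMUSG00000037321, chr17:34187553-34197225) was at 1.25, 4.79 and 13.2 in AAV-GFP, 205, 6.58 and 168 in mice labelled obese, and 3.15, 0.786 and 9.60 in mice labelled nonobese. The AAV-GFP libraries were spread widely, replicate 2 labelled obese fell within their range, and the log2 FC was 3.49 ± 0.93 (SE). Tap2 (ENSMUSG00000024339, chr17:34203527-34216321) was at 1.5, 6.70 and 3.69 in AAV-GFP, 39.6, 2.95 and 42.1 in mice labelled obese, and 6.65, 0 and 1.92 in mice labelled nonobese. Its high libraries were 9.99 and 10.6 times the AAV-GFP mean, less than for Tap1 (32.0 and 26.2), and its log2 FC was 2.09 ± 0.92 (SE). Tapasin, Tapbp (ENSMUSG00000024308, chr17:33915899-33929292), which tethers class I to the transporter, was at 26.4, 29.1 and 28.9 in AAV-GFP, 182, 30.9 and 120 in mice labelled obese, and 31.7, 15.2 and 34.8 in mice labelled nonobese. It was the most even member in AAV-GFP and had the smallest log2 FC of the 10 genes, 1.61 ± 0.45 (SE), with ratios of 6.46 and 4.27 to the AAV-GFP mean in replicates 1 and 3. Replicate 2, at 1.10 times that mean, was only just above all AAV-GFP libraries.

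Psmb8 and Psmb9 encode catalytic subunits that replace Psmb5 and Psmb6 in the immunoproteasome. Psmb9 (ENSMUSG00000096727, chr17:34181987-34187764) and Tap1 are transcribed away from each other, and their RefSeq starts are 226 bases apart. By the positions printed here the 2 genes overlap on opposite strands, so the limit on reads given for B2m holds for them too. Their promoter windows share the following 275 bases (on the + strand). These are shown because a single stretch spans the RefSeq starts of both genes and held none of the interferon or NF-kB letters searched. Capitals mark the CCAAT box, found in 37.92% of all promoters and in 7 of the 8 members searched.
Tap1 and Psmb9, chr17:34187306-34187580 (+ strand): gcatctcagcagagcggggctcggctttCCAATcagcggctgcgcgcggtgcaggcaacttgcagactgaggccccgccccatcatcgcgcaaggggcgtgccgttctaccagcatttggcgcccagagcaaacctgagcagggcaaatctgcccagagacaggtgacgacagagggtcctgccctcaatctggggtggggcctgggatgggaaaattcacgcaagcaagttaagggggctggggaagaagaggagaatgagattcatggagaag
Psmb8 (ENSMUSG00000024338, chr17:34197721-34201454) was the member with the letters TTCNNNGAA of the interferon-gamma activated sequence (GAS), present in 8.466% of all promoters. They are in capitals here.
Psmb8, chr17:34198053-34198152 (+ strand): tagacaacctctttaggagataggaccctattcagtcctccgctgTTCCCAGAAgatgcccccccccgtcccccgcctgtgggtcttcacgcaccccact

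Psmb8 signal was 2.74, 6.13 and 1.55 in AAV-GFP, 109, 12.5 and 143 in mice labelled obese, and 4.90, 4.71 and 1.28 in mice labelled nonobese. All 3 labelled obese libraries were above AAV-GFP, at 31.4, 3.59 and 41.3 times the mean, and the log2 FC was 3.87 ± 0.77 (SE). Psmb9 was at 0, 0.766 and 0 in AAV-GFP, 40.7, 0 and 51.3 in mice labelled obese, and 0, 0 and 1.07 in mice labelled nonobese. This gene was thus close to absent outside 2 libraries, which held 181 and 221 reads against at most 5 in each of the others. Its log2 FC of 3.42 ± 1.17 (SE) rests on signal + 1, and it passed the filter on low values (a minimum signal of 1 in 3 or more libraries) only because of those libraries and nonobese replicate 3. The other 9 genes would have passed on the other 7 libraries alone.

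Ratios within a library, which do not depend on its scaling, showed the same split. Psmb8 was 0.108 to 0.195 times its constitutive counterpart Psmb5 in AAV-GFP, 7.03, 0.478 and 6.78 times in mice labelled obese, and 0.0370 to 0.142 times in mice labelled nonobese. Psmb9 to Psmb6 was at most 0.0148 in AAV-GFP, 0.761, 0 and 1.24 in mice labelled obese, and at most 0.0139 in mice labelled nonobese. For Psmb10, the remaining immunoproteasome catalytic subunit, the ratio to Psmb7 was 0.204 to 0.409 in AAV-GFP, 1.99, 0.113 and 0.929 in mice labelled obese, and 0.175 to 0.322 in mice labelled nonobese. In replicate 2 labelled obese the 3 ratios went different ways: Psmb8 to Psmb5 was above the AAV-GFP range, Psmb9 had no read, and Psmb10 to Psmb7 was below that range.

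**Figure D2:**
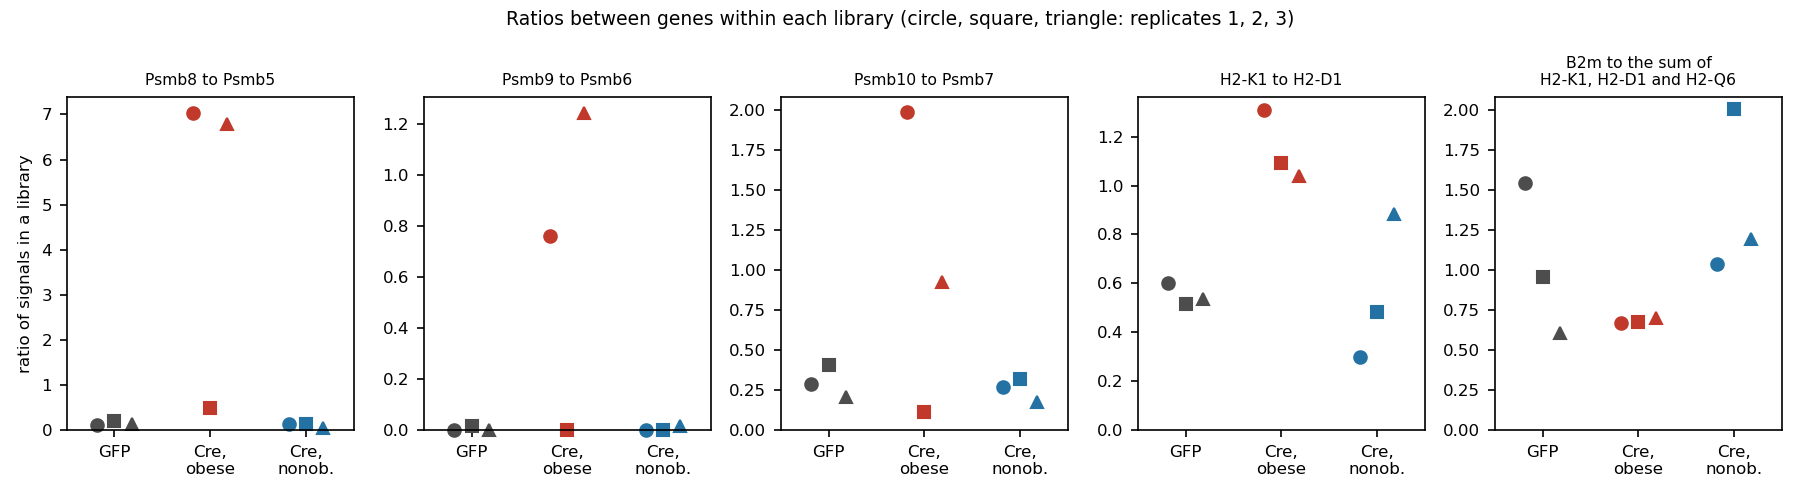
Ratio of the signals of paired genes in each library (linear axes from 0), for 3 immunoproteasome subunits over their constitutive counterparts, H2-K1 over H2-D1, and B2m over the 3 heavy chains. Circles, squares and triangles are replicates 1, 2 and 3. Psmb8 to Psmb5 is at 7.03 and 6.78 in labelled obese replicates 1 and 3 and at most 0.478 elsewhere.

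Nlrc5 (ENSMUSG00000074151, chr8:94434356-94527272) encodes a transcriptional regulator that acts on class I promoters and is itself raised by interferon. It was at 5.73, 1.91 and 2.91 in AAV-GFP, 176, 7.26 and 113 in mice labelled obese, and 0.875, 0 and 1.28 in mice labelled nonobese. The groups did not overlap, with all labelled obese libraries above AAV-GFP (log2 FC 3.70 ± 0.89, SE) and all labelled nonobese libraries below. Reads were few at the lower end, between 10 and 23 per library in AAV-GFP and 0 to 6 in mice labelled nonobese.

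Per kilobase of merged exon, B2m had by far the highest level in AAV-GFP, 76.9 ± 24.5 (SD, n = 3) units of signal per kb. H2-D1 came next at 16.2 ± 6.69, then Tapbp at 7.76 ± 0.413 and H2-K1 at 7.66 ± 2.68, a pair within their spread. H2-Q6 had 2.53 ± 0.385, and Tap1, Tap2 and Psmb8 lay together at 1.17, 1.0 and 1.03, less than their SDs apart. Nlrc5 (0.415 ± 0.233) and Psmb9 (0.0698 ± 0.121) were lowest. In labelled obese replicate 1 H2-K1 (277) had passed H2-D1 (241), and in replicate 3 the order was H2-D1 (284) before H2-K1 (259), with B2m still highest at 1242 and 1340.

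Across all entries, 0.422% were called higher in mice labelled obese than in AAV-GFP at an FDR under 0.1 in limma, and 6 of the 10 genes were among them: H2-K1, H2-D1, H2-Q6, B2m, Psmb8 and Nlrc5. None was called lower (0.133% of all entries). The median log2 FC of the 10 genes was 3.46, against -0.04 over all entries tested. Groups did not overlap, with labelled obese higher, for 7.18% of all entries and for 5 of the 10 genes (H2-K1, H2-Q6, Tapbp, Psmb8 and Nlrc5). Since the genes were selected with these values known, the counts describe them and support nothing further.

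The calls depended on single libraries. Without labelled obese replicate 2, all 10 genes were called higher (3.08% of all entries). Without replicate 1, 0 of the 9 that could be tested were called in limma (0.0373% of all entries), and 8 had an unadjusted p under 0.05 (8.74% of all entries did), and without replicate 3, 1 of 9 was called (0.067% of all entries). Leaving out a control library also mattered, with 1 gene called without AAV-GFP replicate 1 (0.0594% of all entries) and 2 without AAV-GFP replicate 3 (0.134% of all entries). With both high libraries left out, 0 of 9 were called (0.0225% of all entries) and 1 had an unadjusted p under 0.05 (10.6% of all entries did). The log2 FC of replicate 2 alone against AAV-GFP then ran from -0.18 (Tap2) to 1.72 (Psmb8), with the lone library assumed to vary like the other groups. Psmb9 did not pass the filter in these 3 fits without a high library, and edgeR and DESeq2 were not run on them. In labelled obese replicate 2, 5 of the 10 genes (H2-K1, H2-Q6, Tapbp, Psmb8 and Nlrc5) were above the AAV-GFP range and 5 within it. The share of all entries above that range in this library was not computed, so the count is only a description.

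**Figure D3:**
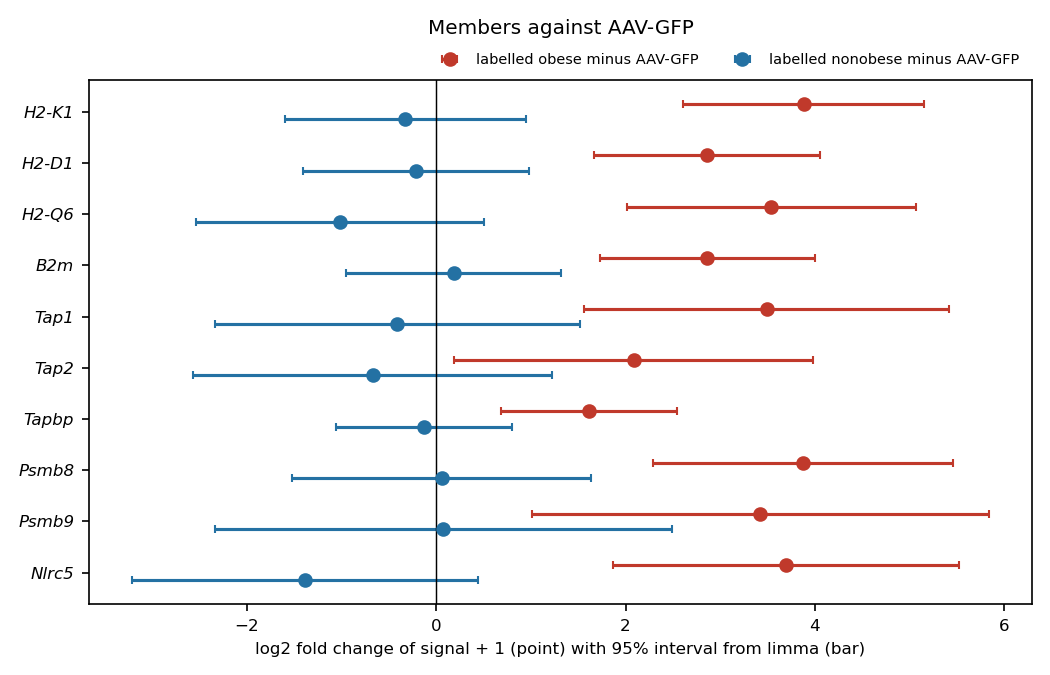
Log2 fold change on signal + 1 of each of the 10 genes in the AAV-Cre mice labelled obese (red) and labelled nonobese (blue) against the same AAV-GFP libraries, with 95% intervals from limma (n = 3 per group). The red points run from 1.61 to 3.88, while every blue interval includes 0.

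No difference of the 10 genes between AAV-Cre mice labelled nonobese and AAV-GFP mice passed the test. They are compared with the same AAV-GFP libraries as the mice labelled obese, so the comparisons share their controls. In limma 0 of the 10 genes were called in either direction (0.0074% of all entries each way), 0 had an unadjusted p under 0.05 (2.27% of all entries did), and edgeR and DESeq2 on recovered reads also called 0. The log2 FCs ran from -1.39 (Nlrc5) to 0.18 (B2m), with a median of -0.27 against -0.02 over all entries. For H2-K1 the 95% interval was -1.60 to 0.95 and for B2m -0.95 to 1.32. Nlrc5 (interval -3.22 to 0.44) and H2-Q6 (log2 FC -1.02, interval -2.54 to 0.51) were lower in all 3 labelled nonobese libraries than in any AAV-GFP library. An exact permutation test (2-sided) gave p = 0.1 for each, the smallest that 3 against 3 mice allow, and 5.15% of all entries had groups that did not overlap in this direction. By library, replicate 2 labelled nonobese was below the AAV-GFP range for 7 of the 10 genes and replicates 1 and 3 for 3 each. The share of all entries below that range in a single library was not computed, so these counts are only a description.

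Between the AAV-Cre subsets, 8 of the 10 genes were called higher in mice labelled obese (0.733% of all entries), the exceptions being Tap2 and Psmb9. The log2 differences ran from 1.74 (Tapbp) to 5.09 (Nlrc5), with a median of 3.58 against -0.02 over all entries. H2-K1, H2-D1, H2-Q6, Psmb8 and Nlrc5 did not overlap between the subsets (6.65% of all entries). Without labelled obese replicate 1, 0 of 9 tested were called (0.00745% of all entries), and all 9 had an unadjusted p under 0.05 (9.75% of all entries did). Without replicate 3 the count was 1 of 9 (0.0149% of all entries), and without nonobese replicate 2 it was 5 of 10 (0.356% of all entries). With both high libraries left out, 0 of 9 were called (0.0075% of all entries), and the log2 differences ran from 0.21 (B2m) to 2.35 (Nlrc5). Those differences rest on labelled obese replicate 2 alone. When all 6 AAV-Cre mice were set against AAV-GFP, 0 of the 10 genes were called in limma, edgeR or DESeq2 (in limma 0.0148% of all entries were higher and 0.0074% lower). Only B2m had an unadjusted p under 0.05 (3.14% of all entries did), and the median log2 FC was 1.42.

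Further genes of the pathway were taken from lists of 83 genes, 58 of which were tested. Against AAV-GFP, 3 of the 58 rose in mice labelled obese and 0 fell, beside 0.422% and 0.133% of all entries. Among them were Irf1 (log2 FC 3.10 ± 0.71, limma FDR 0.0563), a transcription factor of the interferon response, and Psme1 (1.23 ± 0.29, FDR 0.0602), a subunit of the proteasome activator PA28. Irf1 was at 6.98, 2.68 and 10.1 in AAV-GFP, 154, 15.4 and 79.7 in mice labelled obese, and 1.40, 5.76 and 6.62 in mice labelled nonobese. Psme1 was at 104, 85.2 and 96.1 in AAV-GFP, 413, 123 and 221 in mice labelled obese, and 105, 142 and 87.7 in mice labelled nonobese. For both genes replicate 2 labelled obese was above AAV-GFP. All 3 calls were lost without labelled obese replicate 1, without replicate 3, and without AAV-GFP replicate 1 or 3.

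Most other heavy chains and class I-like chains, a list that includes Hfe and Fcgrt, had values that followed those of the members. H2-Q7, H2-Q4 and H2-Q5 share 50-base windows with H2-Q6, so their reads may not be fully separate from those of that member. Of 11 with a row, 10 were higher in labelled obese replicates 1 and 3 than in every other library (9.34% of all entries tested), with H2-Q2 the exception. H2-M2 and H2-Q5 had fewer than 50 reads over the other 7 libraries, while every entry had at least 50 over all libraries. They thus have a row only through the 2 libraries in which they were highest, and H2-M2 was not tested. None of the 10 tested was called against AAV-GFP in limma (3 had an unadjusted p under 0.05, as did 9.88% of all entries). On recovered reads 3 of these 10 were called higher by edgeR's quasi-likelihood test (0.578% of all entries), 3 by its likelihood ratio test (1.53%) and 3 by DESeq2 (1.61%). H2-Q7 was at 7.23, 6.13 and 10.7 in AAV-GFP, 183, 9.99 and 153 in mice labelled obese, and 1.92, 4.71 and 2.77 in mice labelled nonobese. H2-Q4 was at 8.73, 8.81 and 3.11, then 146, 5.45 and 89.2, then 3.15, 1.0 and 2.77 in the same order. Both were called higher in mice labelled obese than in mice labelled nonobese (log2 differences 4.09 and 3.80), as was Irf1 (3.57). In all, 4 of the 58 genes were called higher between the subsets, beside 0.733% of all entries. Against AAV-GFP, limma called 0 of the 58 in mice labelled nonobese and 0 with all AAV-Cre mice pooled, and edgeR and DESeq2 also called 0. In limma 1 and 4 had an unadjusted p under 0.05, beside 2.27% and 3.14% of all entries.

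For the 14 core subunits of the constitutive proteasome the median log2 FC of the labelled obese group was -0.03, none was called in limma, edgeR or DESeq2 (2 had an unadjusted p under 0.05 in limma), and none was higher in both high libraries than in all 7 others. These counts are near the shares over all entries (0.422% called higher and 9.34% highest in both libraries), and no difference from the members was tested. Psmb5 was at 25.4, 31.4 and 11.7 in AAV-GFP, 15.5, 26.1 and 21.1 in mice labelled obese, and 34.5, 34.0 and 34.6 in mice labelled nonobese. Among other loading and trimming genes, 6 of 8 were highest in both of those libraries. Erap1, which trims peptides, was at 42.1 and 59.0 there against 0 to 14.7 elsewhere, and the chaperone calreticulin (Calr) at 759 and 773 against 492 to 592. Their median log2 FC was 0.40, and limma and edgeR called none of the 8 and DESeq2 2 (2 had an unadjusted p under 0.05 in limma). Of 16 genes of the cells and receptors that read class I, 6 had a row and 3 were tested, of which limma called 0 (2 had an unadjusted p under 0.05), edgeR's quasi-likelihood test 0, and its likelihood ratio test and DESeq2 1 each.

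**Figure D4:**
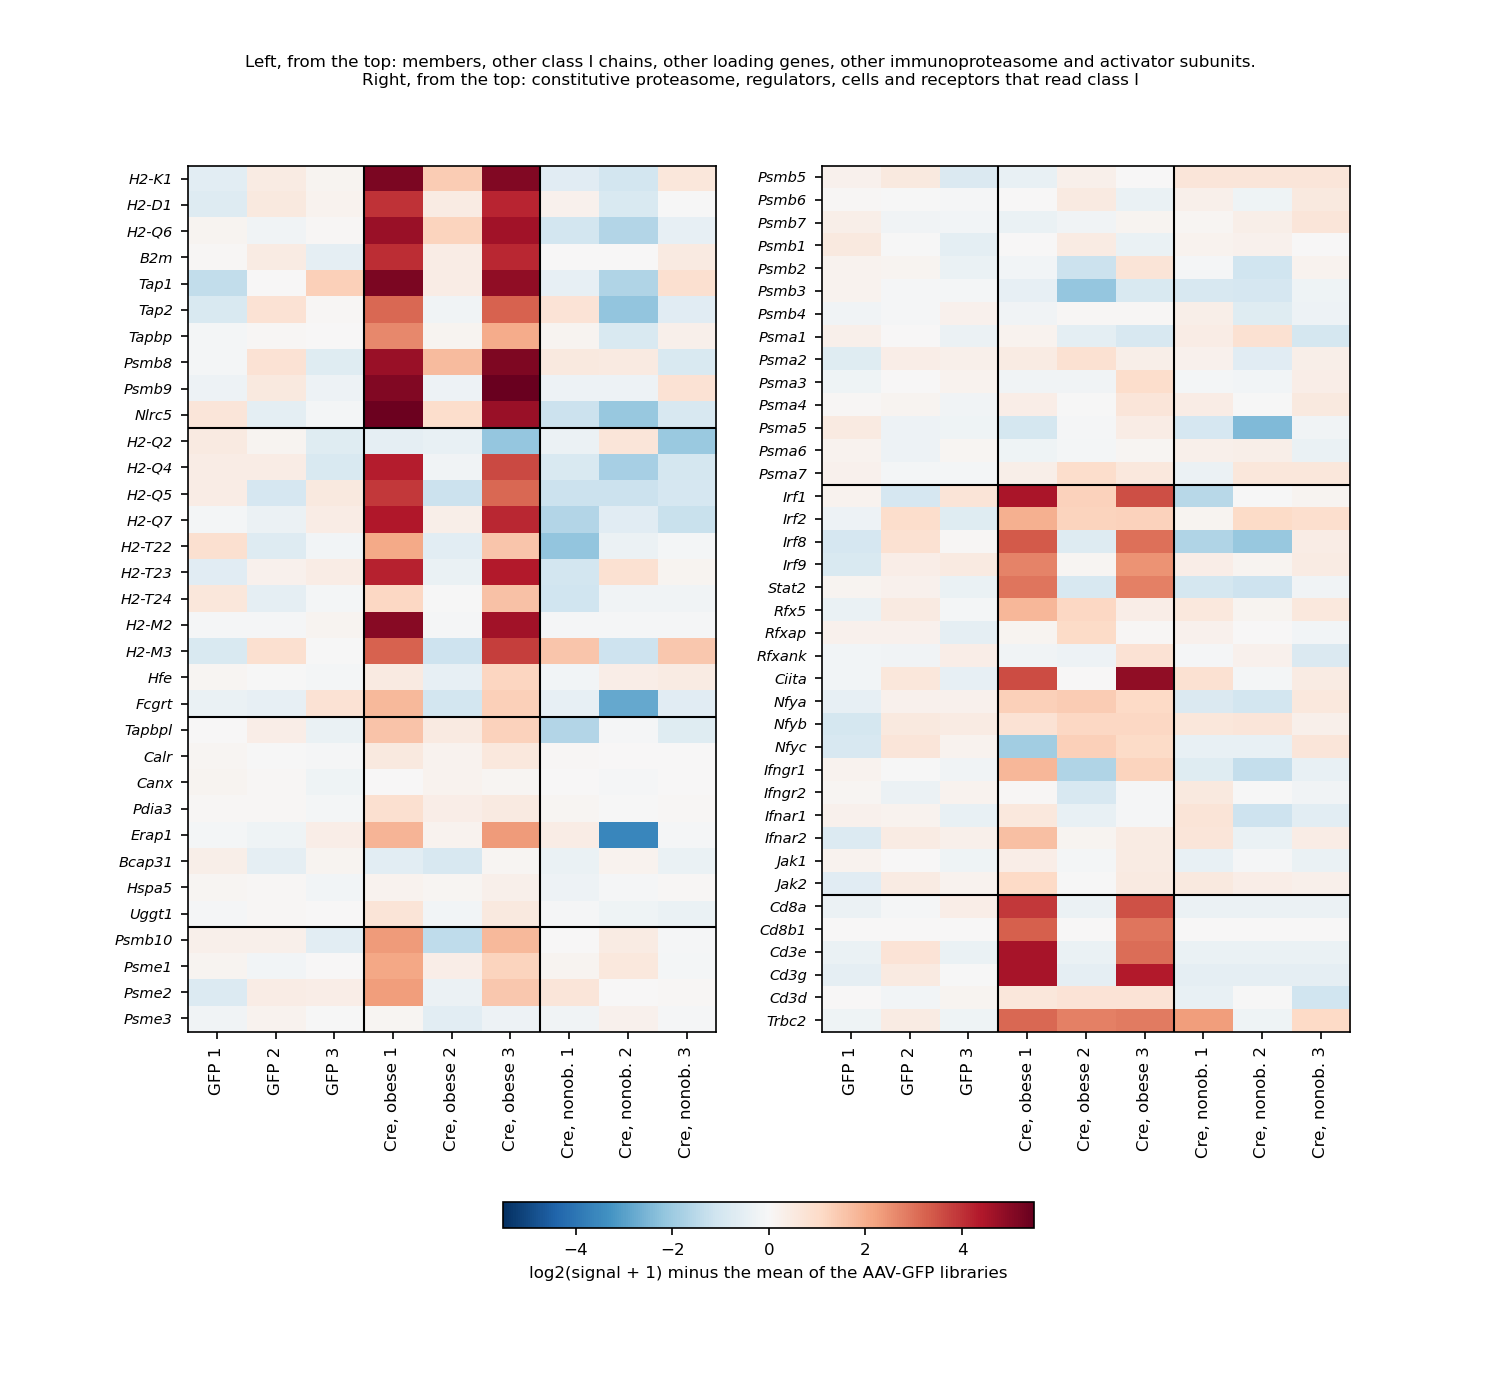
Each row is a gene and each column a library, and the color is log2(signal + 1) minus the mean of the AAV-GFP libraries. Black lines part the groups and the gene lists. Members, most other heavy chains and Irf1 and Ciita are red in labelled obese replicates 1 and 3. None of the 14 constitutive proteasome subunits at the upper right was highest in both of these libraries. Some of their cells lie well below AAV-GFP, such as Psma5 in nonobese replicate 2 and Psmb3 in labelled obese replicate 2.

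The entries whose profile over the 9 libraries lay nearest to the median of the members were sought by root mean square distance on the log2 scale, relative to AAV-GFP. Over the 13496 other entries the median distance was 2.33. Gbp3, an interferon-induced GTPase, was nearest (0.447), followed by Atf3 (0.545), a stress-induced transcription factor. Further entries among the 10 nearest were Gimap4 (0.572), Cd274 (0.589), which encodes the ligand PD-L1, Iglc2 (0.606), a light chain constant region of immunoglobulin, and Ciita (0.622), the class II counterpart of Nlrc5. Fcgr4 (0.644), Wdfy4 (0.652) and C1qa (0.657), a complement gene of microglia, were also among them. Outside labelled obese replicates 1 and 3, Atf3, Gimap4, Iglc2, Ciita and Fcgr4 had a signal of at most 1.925 in any library. Each of these had fewer than 50 reads over the other 7 libraries, so it has a row only through the 2 high libraries. Gbp3 was at 11, 18.8 and 11.7 in AAV-GFP, 381, 20.4 and 344 in mice labelled obese, and 5.95, 12.8 and 12 in mice labelled nonobese.

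Markers of several cell types moved with the 10 genes. Of all entries tested, 9.34% were higher in labelled obese replicates 1 and 3 than in any other library. Of the microglial markers, 8 of 10 were higher in labelled obese replicates 1 and 3 than in any other library, and their summed signal was 1023 and 967 there against 144 to 202 elsewhere. P2ry12, a defining marker of resident microglia, was not among the 8, at 9.0 and 7.20 against 5.12 to 20.7 in the other libraries. Of 9 listed markers of B and plasma cells, 6 had a row, and all 6 were highest in both libraries. Their summed signal was 2776 and 4923 there and 70.1 in replicate 2, against 1.75 to 7.47 in AAV-GFP and 29.9 to 44.2 in mice labelled nonobese. Cd79a was at 0 in the other 7 libraries. Of 14 listed markers of T and NK cells, 6 had a row and 5 were highest in both (summed signal 101 and 70.6, against 2.35 to 12.7 elsewhere). Nkg7, Ncr1 and Klrb1c, listed for NK cells, had no row. Cd8b1, a chain of the CD8 receptor that reads class I, was at 8.77 and 6.74 in the 2 libraries and at 0 elsewhere. Every entry had at least 50 reads summed over the libraries. Cd79a, Mzb1, Pou2af1, Cd3e, Cd3g, Cd8a and Cd8b1 had fewer than 50 over the other 7 libraries. They thus have a row only through these 2 libraries, which partly fixed the counts of B, plasma, T and NK cell markers in advance.

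Of 7 listed markers of monocytes and dendritic cells, 4 had a row and 3 were highest in both libraries (134 and 254, against 8.35 to 21.3 elsewhere). Ly6c2 was at 0 in the other 7 and Itgax had fewer than 50 reads over them, so both have a row only through these 2 libraries. Astrocyte markers summed to 1260 and 1671 against 605 to 865 elsewhere, with 4 of 6 highest in both libraries. Endothelial markers were at 138 and 155 against 73.8 to 120 (2 of 6), and ependymal and tanycyte markers at 194 and 137 against 49.1 to 97.4 (1 of 4). None of the 11 hypothalamic, 6 oligodendrocyte, 5 blood or 6 neuron markers was highest in both, the hypothalamic sum (485 and 430) lay within the 143 to 1163 of the others, and the neuron sum was lowest there, at 1784 and 1698 against 2109 to 2538. The part of these cell types in the class I result was not tested.

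Cre signal was 1330 and 235 in labelled obese replicates 1 and 3, the lowest of the 6 AAV-Cre libraries, against 8557 in replicate 2 and 4644 to 7064 in mice labelled nonobese. The part of Cre level or of the position of the captured region (Nr5a1 and Agrp, above) in the class I result was not tested.

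**Figure D5:**
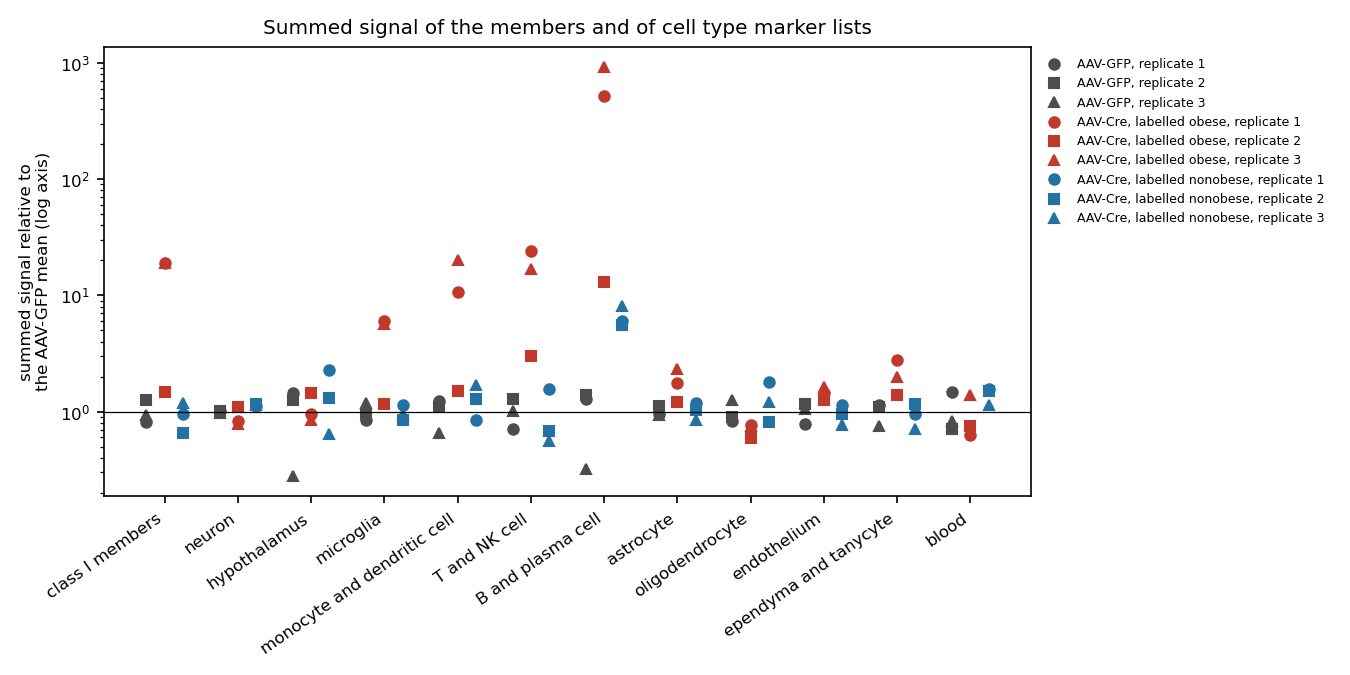
Summed signal of the 10 class I genes and of each marker list in each library, relative to the mean of the AAV-GFP libraries (log axis, the line marks 1). Colors are groups and shapes are replicates. Labelled obese replicates 1 and 3 are highest for the class I genes and for the microglial, monocyte, T cell, B cell and astrocyte lists, and lowest for neurons.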

How the data were processed

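Laser-captured mediobasal hypothalamus of 9 mice was sequenced as single-end reads of 50 bases. The submitters' processing notes name CASAVA 1.7, TopHat2 2.0.11, HTSeq, edgeR and limma, and the build GRCm38. The authors deposited signal values, reads per gene over a TMM-scaled library size on the scale of CPM. All values (100%) were whole reads within 0.01 of a read, and reads were recovered for count tests.

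Log2(signal + 1) was tested in limma 3.58.1 (R 4.3.3) with 3 groups in a fit, or 2 treatments for all AAV-Cre mice, a variance trend and Benjamini-Hochberg adjustment (FDR) over the 13506 entries that reached a signal of 1 in 3 or more libraries. A call is an FDR under 0.1, the threshold of the study. The test had been planned for CPM and was kept for signal. Replicates are different mice, grouped by weight label. Symbols matched 13446 of 13586 Ensembl identifiers. Positions and shared 50-base windows come from GENCODE M21, promoters from RefSeq.

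The members, gene lists and tests were chosen with earlier results of these data known. Named genes are the members, pathway genes called in any comparison with Psmb10 and its constitutive counterparts, the 10 nearest profiles, Cre and defining markers. A gene that this rule would name is not reported here. H2-Q2, Calr, Erap1 and P2ry12 were named after their values were seen. Alternatives were pseudocounts of 0.1 and 5, filters, median centring, quantile normalization, no trend, fewer groups, the replicate block, an FDR of 0.05, edgeR 4.0.16, DESeq2 1.42.0 and left-out libraries. The procedure was tested on simulated data.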

Additional observations from a re-analysis of the deposited data

Results flagged for a closer look

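For 8 of the 10 genes limma gave an FDR under 0.1 for labelled obese minus labelled nonobese. The genes were chosen for high values in the mice labelled obese, so these differences are a description and no evidence that the subsets differ. The log2 differences were 4.21 for H2-K1, 3.07 for H2-D1, 4.56 for H2-Q6, 2.68 for B2m, 3.90 for Tap1, 1.74 for Tapbp, 3.82 for Psmb8 and 5.09 for Nlrc5. Without labelled obese replicates 1 and 3 none of the 8 was called (0.0075% of all entries were higher), and the differences were 1.72, 0.64, 2.24, 0.21, 0.82, 0.26, 1.67 and 2.35 in the same order. Replicate 2 labelled obese was above all nonobese libraries for H2-K1, H2-D1, H2-Q6, Psmb8 and Nlrc5 and within their range for B2m, Tap1 and Tapbp.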

How the results depend on the processing

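Counts in this part are only a description where no share of all entries called stands beside them. Against AAV-GFP, edgeR's quasi-likelihood test called 0.578% of all entries higher in mice labelled obese. Its likelihood ratio test called 1.53%, DESeq2 1.61% and limma 0.422%. Labelled obese against AAV-GFP, 6 of the 10 members were called higher. The count was 0 without a variance trend and 0 without both high libraries, and ran from 0 to 10 when each library was left out. Labelled obese against nonobese, it was 8, then 0, 0, and 0 to 10. The count of other pathway genes higher against AAV-GFP (3) was 0 at an FDR of 0.05, 0 with pseudocount 0.1, 5 with pseudocount 5, 0 without a trend, 1 with only the groups compared, 6 and 10 with edgeR's quasi-likelihood and likelihood ratio tests, 12 with DESeq2, 0 without both high libraries, and 0 to 18 when each library was left out. Against nonobese (4) it was 7 with pseudocount 5, 0 without a trend, 7, 13 and 14 with these 3 count tests, 0 without both high libraries, and 0 to 25.

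Equal replicate numbers belong to different mice, and their deviations correlated at -0.02 to 0.09 (over 0.1 in 0 of 9 pairs), so the numbers do not pair the samples. With the replicate block, 8 members were called in each of these comparisons, and 8 other pathway genes in each. The share of all entries called with the block is not given here, so these counts are only a description. In 5 of 9 pairs a sample correlated best with its own number.

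Without both high libraries the direction turned for Tap2 labelled obese against AAV-GFP (-0.18), and for all AAV-Cre against AAV-GFP in H2-D1 (-0.051), H2-Q6 (-0.46), Tap1 (-0.21), Tap2 (-0.55), Tapbp (-0.064) and Nlrc5 (-0.80). Nonobese against AAV-GFP, leaving out each library gave ranges that cross 0 for B2m (-0.065 to 0.40), H2-D1 (-0.58 to 0.11), H2-K1 (-0.81 to 0.014), Psmb8 (-0.28 to 0.51), Psmb9 (-0.061 to 0.35), Tap1 (-1.08 to 0.25), Tap2 (-1.39 to 0.076) and Tapbp (-0.34 to 0.23). The causes were not tested, beyond fewer samples in the fits that leave libraries out. Psmb9 could not be tested with a filter at 5 or where fewer than 3 libraries kept a signal of 1. With 3 mice a group, small changes of genes near 3 reads were not detectable.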
